A study of Mus musculus with 9 samples.

Results

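The transcription factors that build and maintain heart muscle were compared between sham heart and sham quadriceps of mice. The set holds 10 genes, taken by name: the GATA zinc finger factors Gata4, Gata5 and Gata6, the homeobox factor Nkx2-5, the bHLH factors Hand1 and Hand2, the MADS-box factors Mef2a, Mef2c and Mef2d, and Myocd, the coactivator of serum response factor (SRF). They made up 35 of the 35745 transcripts, and 10 of the 24537 gene names, in the table of raw read counts. The libraries came from C57Bl6 mice (males of the substrain C57Bl/6JCrl by the study's methods) that were 8 weeks old at surgery and had either transverse aortic constriction (TAC, a narrowing of the aortic arch that overloads the left ventricle) or a sham operation, with tissue taken 12 weeks later. RNA was sequenced from 3 sham hearts, 3 sham quadriceps muscles and 3 TAC quadriceps muscles, and the labels name no transgene or drug in any group. The table of TAC quadriceps used here lists 587 genes of secreted proteins and 0 of the 10 factors, so the factors were compared between sham heart and sham quadriceps.

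GATA factors bind DNA through zinc fingers, NKX2-5 through a homeodomain, and HAND proteins on E-boxes as partners of E proteins. MEF2 proteins act in all striated muscle, where class II histone deacetylases hold them back, and they work with myogenic bHLH factors in skeletal muscle and with GATA4 and NKX2-5 in the heart. Myocardin binds SRF rather than DNA and drives genes of smooth muscle and heart.

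Reads were counted in each transcript of a gene, so the rows of a gene share most reads, and each gene is given here by its transcript with the highest mean count. Library totals ran from 33102826 to 38382751 counts for the hearts and from 23383452 to 32989108 in quadriceps. The 14906 genes that exceeded 5 counts in 2 or more libraries were tested by edgeR (quasi-likelihood, TMM scaling), and a gene was called at a Benjamini-Hochberg adjusted p under 0.05. Log2 fold changes are heart over quadriceps. Their SE was derived as the absolute log2 fold change over the square root of the quasi-likelihood F statistic. For genes with few reads in 1 tissue this SE can be too small. DESeq2, another count model, gave an SE of 0.463 for Gata6 and 0.532 for Myocd, where the derived SE was 0.207 and 0.227. Scaling by library totals in place of TMM raised the log2 fold changes of the tested genes by a median of 0.75, and it moved the share of called genes that were higher in heart from 51.4% to 82.0%. The tissue labels held up against marker genes: 8 of 8 cardiomyocyte markers were higher in heart (summed RPKM 31861 to 32450 in heart and 218 to 276 in quadriceps) and 8 of 8 skeletal myofibre markers were higher in quadriceps (1052 to 1223 and 40112 to 47282). The heart libraries differed from each other in atrial genes. Myl7, the atrial regulatory light chain, had 2075, 164 and 3 counts in heart 1, 2 and 3.

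Of the 9 members that could be tested, 6 were higher in heart (Gata4, Gata5, Gata6, Nkx2-5, Hand2 and Myocd) against a background of 33.9% of all tested genes. The study kept secreted-protein genes higher in quadriceps than in heart at a log2 fold change over 2 and p under 0.05. With that threshold (unadjusted p) applied here in both directions, the same 6 passed as higher in heart, where the background was 9.04%. These 6 passed the read filter through their heart libraries alone, so their count is a description and not support for a difference of the set. Mef2c and Mef2d were higher in quadriceps with TMM (background 32.1%), and Mef2d turned to higher in heart with library totals. Mef2c alone passed the fold threshold in that direction (background 7.14%). Mef2a did not pass the test with TMM, and Hand1 had too few reads to be tested. In bulk tissue, fewer cells of a type and less RNA per cell cannot be told apart.

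**Figure D1:**
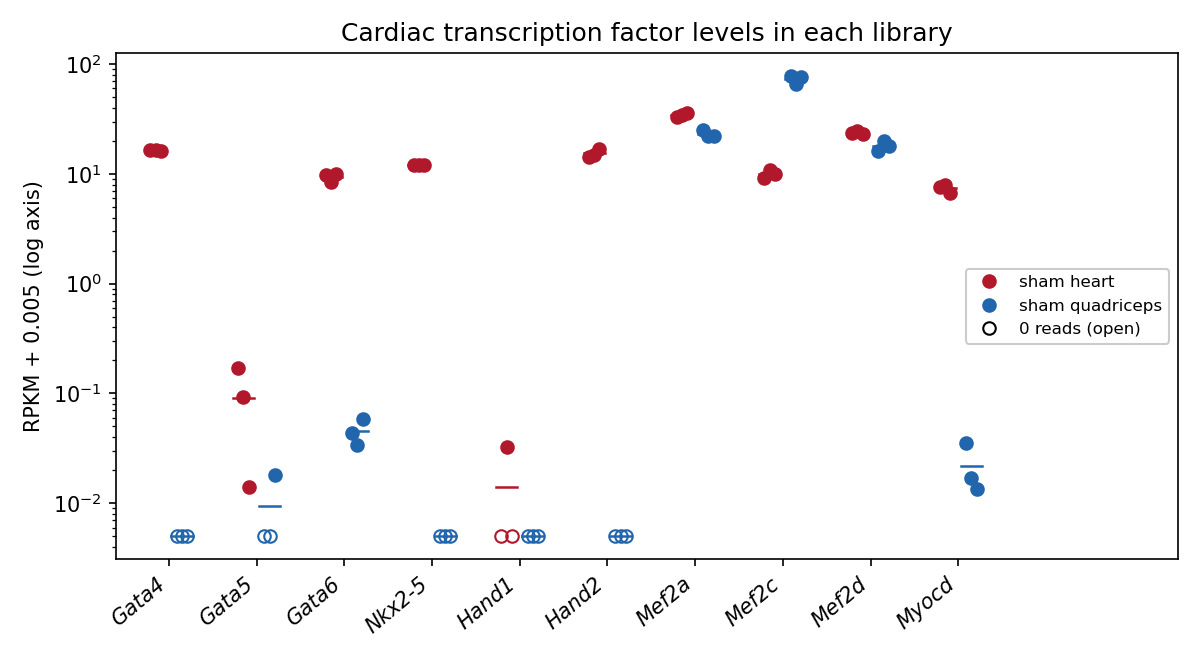
Deposited RPKM of the 10 factors in the 3 sham heart (red) and 3 sham quadriceps (blue) libraries, on a log axis after adding 0.005. Points are libraries, bars are means, and open points mark 0 reads. Gata4, Nkx2-5 and Hand2 lie at 0 in all quadriceps libraries, and Mef2c lies higher in quadriceps than in heart.

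Gata4, the zinc finger factor needed for heart formation and for hypertrophic gene expression, lies at chr14:63198922-63271692 on the minus strand (GRCm38, GENCODE vM21). Its transcript NM_001310610 had 2099, 2152 and 1832 counts in heart 1 to 3 and 0 in each of the quadriceps libraries. All heart libraries were therefore above all quadriceps libraries, and the pooled counts were at least 990.5-fold higher in heart when the quadriceps group was set at a floor of 3 counts (adjusted p = 2.1e-08). In heart its level per length was 16.7, 16.5 and 16.3 RPKM (reads per length of transcript and per library total), a narrow spread. The other Gata4 row differed from it by at most 2 counts in any library.

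Gata6, which overlaps with GATA4 in function in heart and gut, lies at chr18:11052064-11085635 on the plus strand. It had 1156, 1022 and 1061 counts in the hearts and 4, 3 and 4 in quadriceps. The quadriceps counts were few but above 0 in each library. Its log2 fold change was 7.14 ± 0.21 (SE, n = 3 per tissue, adjusted p = 6.34e-09 with edgeR), and the pooled counts were 144-fold higher in heart (exact 95% interval 80.3 to 288, counting error only). In heart, Gata4 made up 61.8% to 66.1% of the summed RPKM of the 3 GATA members and Gata6 33.5% to 38.2%. The noncoding gene 1010001N08Rik overlaps Gata6 on the opposite strand and had 290, 361 and 239 counts in the hearts and 0 in each quadriceps library. Whether counting used the strand is not given in the sources used here, so reads of such overlapping pairs cannot be told apart.

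Gata5, a GATA factor of the endocardium, the outflow tract and the gut, lies at chr2:180325133-180334699 on the minus strand. It had 20, 11 and 1 counts in the hearts and 0, 0 and 1 in quadriceps. Heart 3 and quadriceps 3 each held 1 read, which is 0.00917 and 0.0130 RPKM, so the groups overlapped. The antisense gene Gata5os overlaps it and had 4, 0 and 2 counts in the hearts and 0 in each quadriceps library. The pooled counts were 15.6-fold higher in heart with an exact 95% interval from 2.61 to 636, and the log2 fold change was 3.65 ± 1.41 (SE, adjusted p = 0.0434). The call was lost without quadriceps 1 (adjusted p = 0.127), quadriceps 2 (0.113) or quadriceps 3 (0.0655), and without heart 1 or heart 2 the gene no longer had enough reads to be tested. Without heart 3 it stayed (log2 fold change 4.13, adjusted p = 0.00583).

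The order of the heart libraries in Gata5 was also that of the atrial genes. Myl4, the atrial essential light chain, had 6811, 756 and 91 counts in heart 1 to 3, Sln, the atrial inhibitor of the calcium pump, had 838, 48 and 2, and Nppa, the atrial natriuretic peptide, had 21763, 20012 and 8000. The summed RPKM of the 5 atrial markers was 1038, 642 and 286 in heart and ran from 6.37 to 15.6 in quadriceps, 3 of the 4 tested were higher in heart, and the atrial marker Bmp10 had 0 counts in all libraries but heart 3, where it had 1. Of the 5 mesothelial markers, Upk3b (14, 2 and 0 counts) and Msln (3, 1 and 0) followed the same order. Upk1b (1, 2 and 0) and Lrrn4 (2, 0 and 1) did not. Wt1, the only mesothelial marker with enough reads to be tested, ran the other way (93, 103 and 116). The part of atrial or mesothelial tissue in the Gata5 result was not tested. Gata4 varied far less between the hearts, with 44.1, 42.8 and 42.7 CPM (counts per TMM-scaled library total) in heart 1 to 3, although in the same order. Gata4, Gata6, Nkx2-5, Hand2, Myocd and Mef2c kept their calls when any 1 heart library was left out.

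**Figure D2:**
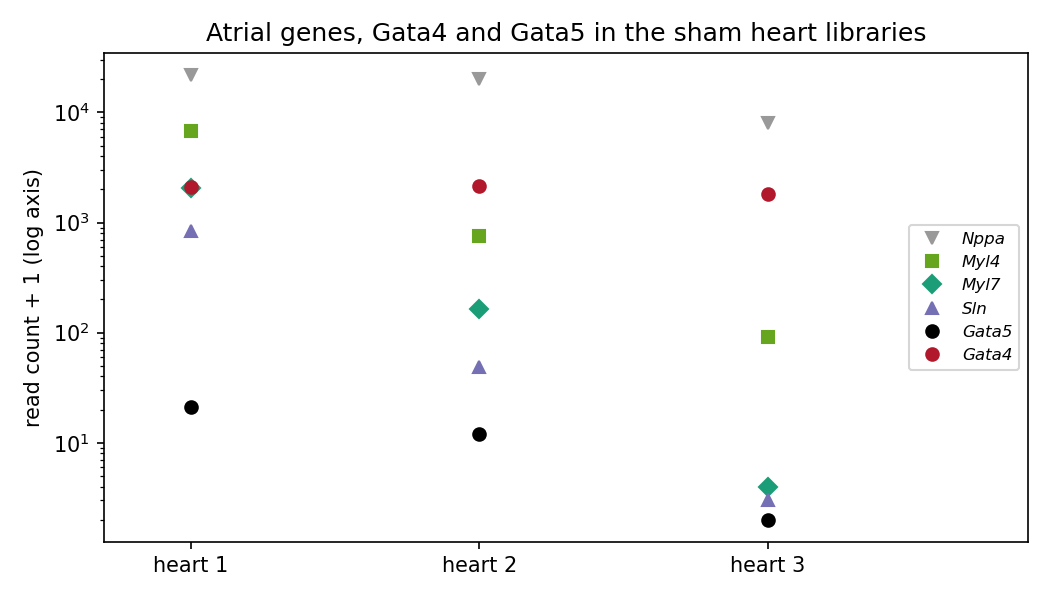
Read counts plus 1, on a log axis, of atrial genes (Nppa, Myl4, Myl7, Sln), Gata5 and Gata4 in the 3 sham heart libraries. Gata5 and the atrial genes are highest in heart 1 and lowest in heart 3, and Gata4 lies between 1832 and 2152 counts.

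Nkx2-5, the homeobox factor of cardiac progenitors and working myocardium, lies at chr17:26838664-26845009 on the minus strand. It had 672, 697 and 608 counts in the hearts and 0 in each quadriceps library. In RPKM it was 11.9, 11.9 and 12.1 in heart (SD 0.0841). The pooled counts were at least 322-fold higher in heart (adjusted p = 9.25e-08).

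Hand2, a bHLH factor that forms the right ventricle, the limb and sympathetic neurons, lies at chr8:57320983-57324633 on the plus strand. It had 1171, 1277 and 1253 counts in the hearts and 0 in each quadriceps library, so it was at least 603-fold higher in heart (adjusted p = 7.38e-08). Its paralog Hand1, a factor of the left ventricle of the embryo and of the placenta, lies at chr11:57828705-57832818 on the minus strand. Hand1 had 0, 2 and 0 counts in the hearts and 0 in each quadriceps library, at or under the floor of 3 counts in both tissues, so no fold change is given. In the adult heart libraries the Hand2 level was 14.2 to 17.0 RPKM and that of Hand1 was at most 0.0275 RPKM. The noncoding gene Hand2os1, on the opposite strand of Hand2, was not analysed here.

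The bases before the start of transcription are shown for Hand2 and Nkx2-5, the members with reads in heart alone that have an entry in the RefSeq promoter table (GRCm38.p6, 250 bases before the start, 5′ to 3′ on the gene's strand). The windows are chr8:57320733-57320982 (+) and chr17:26841566-26841815 (-). The Nkx2-5 window lies inside the GENCODE span of the gene given above. It precedes a RefSeq start and not the 5′ end of that span, so the bases before that end are not shown. Capitals mark the GATA letters read on either strand, that is the words AGATAA and AGATAG and the words TGATAA and TGATAG.
Hand2: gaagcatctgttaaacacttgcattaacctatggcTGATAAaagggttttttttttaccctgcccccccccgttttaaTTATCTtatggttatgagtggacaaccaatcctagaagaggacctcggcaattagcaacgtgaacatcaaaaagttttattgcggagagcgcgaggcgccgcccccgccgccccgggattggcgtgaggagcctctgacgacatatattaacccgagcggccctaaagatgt
Nkx2-5: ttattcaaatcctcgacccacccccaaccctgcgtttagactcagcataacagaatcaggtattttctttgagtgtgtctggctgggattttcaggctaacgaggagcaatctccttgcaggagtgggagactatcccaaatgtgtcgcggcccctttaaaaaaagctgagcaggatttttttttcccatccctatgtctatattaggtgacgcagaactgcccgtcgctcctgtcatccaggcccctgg
The Hand2 window held 2 such matches and the Nkx2-5 window 0. Of all 32851 promoter windows of this length 26.5% held at least 1 match, and of the 8 windows of Gata5, Hand2, Nkx2-5, Mef2a, Mef2c (3 starts) and Mef2d it was 1. E-boxes (CANNTG) were in 5 of these 8 windows and in 66.2% of all windows. The NK2 letters TNAAGTG (10.1% of all windows), the MEF2 consensus (2.92%) and the SRF consensus known as the CArG box (1.47%) were in 0 of the 8. A match of letters is a description of the window and no evidence of binding.

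Myocd, the SRF coactivator, lies at chr11:65176561-65269989 on the minus strand. It had 1447, 1534 and 1127 counts in the hearts and 5, 2 and 1 in quadriceps, with no overlap. Its log2 fold change was 7.93 ± 0.23 (SE, adjusted p = 5.83e-09), and the pooled counts were 251-fold higher in heart (exact 95% interval 127 to 581). Its level in heart was 6.67 to 7.83 RPKM, the lowest of the 8 members that were well above 0 there.

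The Myocd rows differ by 1 coding exon of 144 bases, at chr11:65184488-65184631 on the minus strand. The row with this exon (NM_145136) held 55, 70 and 29 more reads than the row without it (NM_146386) in heart 1 to 3, which is 3.95%, 4.78% and 2.64% of the latter. These are shares of all reads of a row, and not of the transcripts that use the exon. In quadriceps the rows held equal counts, but only 8 reads in all. The exon is shown as the stretch of sequence that separates the rows.
Myocd exon: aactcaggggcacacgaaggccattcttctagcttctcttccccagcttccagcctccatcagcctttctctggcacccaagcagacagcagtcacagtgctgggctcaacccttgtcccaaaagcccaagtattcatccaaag

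Mef2c was the member with the opposite pattern. This MEF2 factor is needed for heart looping in the embryo and for the fibre type and sarcomeres of skeletal muscle. It lies at chr13:83504034-83667080 on the plus strand. Its transcript NM_025282 had 2137, 2621 and 2103 counts in the hearts and 16055, 13723 and 11300 in quadriceps. Each quadriceps library was above each heart library although the quadriceps libraries were smaller. The level was 48.6 ± 3.63 CPM in heart and 601 ± 33.7 CPM in quadriceps (SD, n = 3). The log2 fold change was -3.63 ± 0.12 (SE, adjusted p = 1.64e-08) with TMM and -2.88 ± 0.12 (adjusted p = 4.21e-07) with library totals, both in the direction of quadriceps.

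Mef2a, a MEF2 factor needed for intact mitochondria of the heart, lies at chr7:67231163-67372858 on the minus strand. It had 6758, 7325 and 6502 counts in the hearts and 4551, 4044 and 2855 in quadriceps. With TMM the log2 fold change was -0.18 ± 0.09 (SE, adjusted p = 0.114), and with library totals it was 0.57 ± 0.10 (adjusted p = 0.000803), so the sign turned with the scaling. By deposited RPKM, which uses library totals, it was 33.0, 34.5 and 35.5 in heart and 25.2, 22.2 and 22.1 in quadriceps. By TMM-normalised CPM it was 146 ± 4.80 in heart and 166 ± 4.05 in quadriceps. The gene Lysmd4 overlaps it on the opposite strand, with 378 to 459 counts in the hearts and 110 to 181 in quadriceps.

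Mef2d, a MEF2 factor of the remodelling of the stressed heart, lies at chr3:88142372-88172086 on the plus strand. It had 4718, 5043 and 4088 counts in the hearts and 2867, 3578 and 2246 in quadriceps. The log2 fold change was -0.37 ± 0.13 (SE, adjusted p = 0.0300) with TMM and 0.39 ± 0.10 (adjusted p = 0.00909) with library totals, so this sign turned too, with a call on each side. With TMM the call was also lost when heart 1, heart 2, heart 3, quadriceps 2 or quadriceps 3 was left out (adjusted p = 0.0608 to 0.0940), and it stayed without quadriceps 1 (0.00197). The antisense gene 1700113A16Rik overlaps Mef2d, with 120 to 152 counts in the hearts and 132 to 281 in quadriceps.

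**Figure D3:**
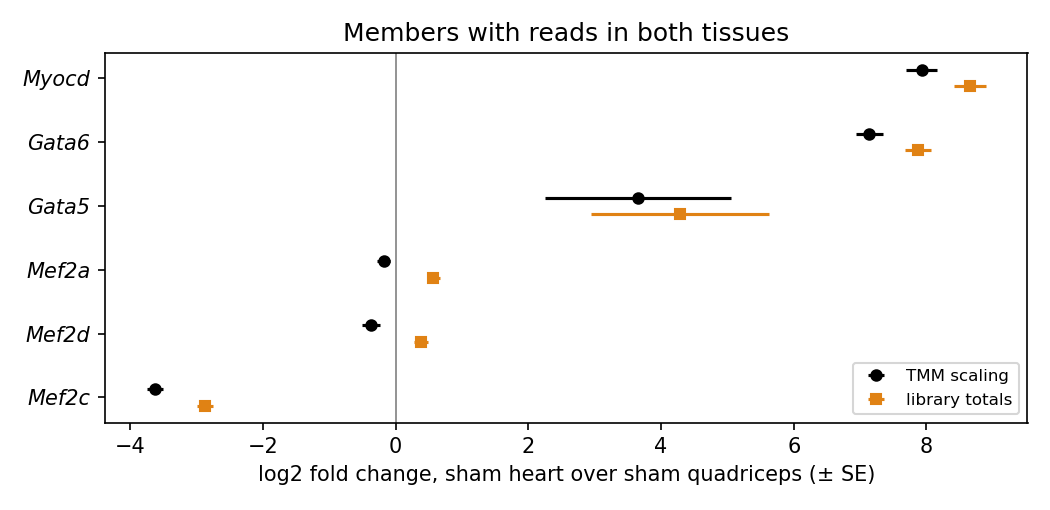
Log2 fold change of sham heart over sham quadriceps (± SE, n = 3 per tissue) for the 6 tested members with reads in both tissues, with TMM scaling (black circles) and with library totals (orange squares). Mef2a and Mef2d lie below 0 with TMM and above 0 with library totals, while Mef2c lies below 0 and Gata5, Gata6 and Myocd above 0 with both. The SE is derived from the F statistic and can be too small for genes with few quadriceps reads.

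Within a library the shares of the MEF2 genes do not depend on the scaling. In heart, Mef2a made up 49.5% to 51.9% of the summed RPKM of the 3 MEF2 members, Mef2d 33.4% to 35.9% and Mef2c 13.9% to 15.5%. In quadriceps, Mef2c made up 60.9% to 65.7%, Mef2a 19.0% to 21.1% and Mef2d 13.6% to 18.6%. Mef2a therefore led in each heart library and Mef2c in each quadriceps library.

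By RPKM, the order of the members in heart was Mef2a (mean 34.4), Mef2d (23.6), Gata4 (16.5), Hand2 (15.3), Nkx2-5 (12.0), Mef2c (10.01), Gata6 (9.41), Myocd (7.39), Gata5 (0.0867) and Hand1 (0.00917). Gata4 and Hand2 overlapped in range, with Gata4 above Hand2 in 2 of 3 libraries, and so did Mef2c and Gata6, again in 2 of 3. Gata5 and Hand1 overlapped as well. The other neighbours did not overlap. In quadriceps the order was Mef2c (73.5), Mef2a (23.2), Mef2d (18.1), Gata6 (0.0402), Myocd (0.0168) and Gata5 (0.00433), with the other 4 at 0. Mef2c, Mef2a and Mef2d were separated from each other and from the rest, and Gata6 overlapped in range with Myocd and Myocd with Gata5.

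Mef2c had 18 rows, all of them called higher in quadriceps, with log2 fold changes between -3.63 and -3.42. They fell into 5 rows with 15817 to 16055 counts in quadriceps 1 and 13 rows with 14334 to 14640. In heart 1 the same 5 rows had 2134 to 2150 counts and the 13 rows 2134 to 2236, so the rows that held more reads in quadriceps did not hold more in heart. This split was made after the counts were seen.

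Mef2c and Mef2d each have rows that differ in the use of 1 of a pair of coding exons. For Mef2c 2 of the 18 rows were compared, since exons of the other 16 were not analysed here. In Mef2c, NM_001170537 uses the first exon (chr13:83625265-83625408, 144 bases) and NM_025282 the second (chr13:83625470-83625607, 138 bases). In Mef2d, NM_133665 uses the first (chr3:88158034-88158171, 138 bases) and NM_001310593 the second (chr3:88158221-88158355, 135 bases). They are shown because the reads of the Mef2c rows differed by tissue, and are taken from GENCODE vM21 (GRCm38), with capitals for bases identical to the other exon of the same gene in a global alignment.
Mef2c first exon: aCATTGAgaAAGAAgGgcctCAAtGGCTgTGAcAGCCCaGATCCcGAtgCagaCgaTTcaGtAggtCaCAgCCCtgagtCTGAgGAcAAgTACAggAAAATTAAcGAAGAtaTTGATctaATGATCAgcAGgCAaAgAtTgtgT
Mef2c second exon: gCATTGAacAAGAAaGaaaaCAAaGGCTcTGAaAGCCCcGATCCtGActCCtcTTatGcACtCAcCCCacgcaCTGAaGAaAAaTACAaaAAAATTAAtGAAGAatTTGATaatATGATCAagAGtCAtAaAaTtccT
Mef2d first exon: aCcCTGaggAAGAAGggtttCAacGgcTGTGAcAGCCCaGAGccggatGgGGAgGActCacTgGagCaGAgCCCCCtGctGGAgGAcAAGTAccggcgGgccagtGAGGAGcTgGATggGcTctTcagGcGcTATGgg
Mef2d second exon: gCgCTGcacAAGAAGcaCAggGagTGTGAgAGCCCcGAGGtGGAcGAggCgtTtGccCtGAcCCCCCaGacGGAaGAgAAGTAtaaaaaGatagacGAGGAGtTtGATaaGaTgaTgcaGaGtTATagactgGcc
The first and second exon shared 63.2% of alignment positions in Mef2c and 51.4% in Mef2d. Between the genes, the first exons shared 63.9% and the second exons 65.2%, whereas first against second shared 57.9% (Mef2c first, Mef2d second) and 49.7% (Mef2c second, Mef2d first).

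Reads in the Mef2c row with the second exon minus those in the row with the first were -13, -13 and -9 in heart and 169, 131 and 147 in quadriceps. The sign differed between the tissues in every library. As a share of the row with the first exon these were -0.605%, -0.494% and -0.426% in heart and 1.06%, 0.964% and 1.32% in quadriceps. The row with the first exon also holds 96 more bases at the start of its last exon, so the difference counts reads on both stretches. In Mef2d the row with the second exon held 136, 131 and 92 more reads than the row with the first in heart and 76, 77 and 76 more in quadriceps. As a share these were 2.30% to 2.97% in heart and 2.20% to 3.50% in quadriceps, and the tissues overlapped. A further Mef2d row (NM_001310587) adds an exon of 21 bases at chr3:88161781-88161801 and held 8, 5 and 14 more reads in heart and 3, 2 and 2 in quadriceps than the row with the first exon. A read longer than 21 bases that covers this exon also reaches its neighbours, which both rows hold, and can count for both. The small differences therefore do not show how much this exon is used. Each share divides the net reads on a short stretch by the reads of a whole row. Reads that reach into exons held by both rows can cancel. The shares are therefore not the part of the transcripts that use an exon. These differences are descriptions without a test, and the exons differ in length and may differ in how well reads align.

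**Figure D4:**
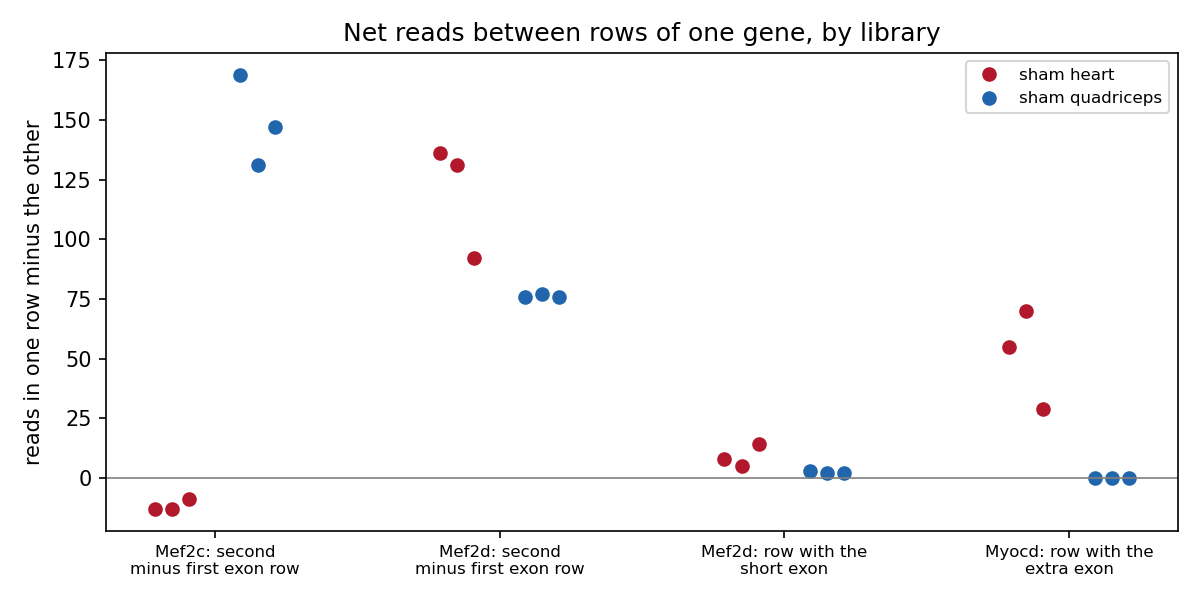
Reads in one row of a gene minus reads in another, for each sham heart (red) and sham quadriceps (blue) library. For Mef2c the difference of the second and first exon rows is -13 to -9 in heart and 131 to 169 in quadriceps, while for Mef2d it is above 0 in both tissues and for the Myocd exon it is 0 in quadriceps.

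The genes with profiles nearest to 4 members over the 6 libraries were found by Euclidean distance of log2(RPKM + 0.5) among the genes tested. Nearest to Gata4 were Kcng2 (distance 0.14), a potassium channel subunit, Kcnj5 (0.29), a subunit of the acetylcholine-gated potassium channel, and Nebl (0.32), a Z-disc protein. Nearest to Nkx2-5 were Gpr22 (0.19), a receptor, 1010001N08Rik (0.28), the noncoding neighbour of Gata6, and Tnni3k (0.28), a cardiac kinase. Nearest to Hand2 were Frmd5 (0.27), Kcnj5 (0.27) and Kcng2 (0.32). Kcng2 had 1765, 1727 and 1418 counts in the hearts and 1, 1 and 2 in quadriceps, and Gpr22 had 1863, 1896 and 1894 in heart and 0 in each quadriceps library. Nearest to Mef2a were Clta (0.14), a clathrin light chain, Paics (0.16), an enzyme of purine synthesis, and Pcbp2 (0.18), an RNA-binding protein. Clta was at 34.8 to 36.7 RPKM in heart and 21.03 to 25.4 RPKM in quadriceps. RPKM uses library totals, with which Mef2a was called higher in heart, while with TMM it was not called. The distances compare levels on that scale and follow it.

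Of relatives and partners of the members, 30 genes were found and 26 tested, of which 16 were higher in heart and 6 higher in quadriceps with TMM (median log2 fold change 1.001, against 0.05 for all genes tested). With library totals these numbers were 20 and 2. The background over all genes tested was 33.9% and 32.1% with TMM and 62.0% and 13.6% with library totals, so the background moved in the same direction. Tbx20, a T-box partner of NKX2-5 and GATA4, had 2373, 2673 and 2079 counts in the hearts and 0 in each quadriceps library (at least 1160-fold higher). Irx4, a homeobox gene of the ventricles, had 930, 1000 and 920 in heart and 0 in each quadriceps library (at least 464-fold higher). Tbx5 (48.3-fold by pooled counts, exact 95% interval 32.4 to 75.5) and Hopx (93.2-fold, 70.0 to 127), which restrains SRF, were also higher in heart. These intervals cover counting error only. In heart 1 to 3, Tbx5 was at 20.7, 15.2 and 14.5 CPM, and Hopx at 82.1, 52.0 and 56.9 CPM.

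Among cofactors of GATA proteins, Zfpm2 was 39.3-fold higher in heart by pooled counts (26.8 to 60.4) and Zfpm1 10.5-fold higher (8.16 to 13.7). The blood and endothelial paralogs Gata2 (log2 fold change 1.15 ± 0.15, adjusted p = 0.000115) and Gata3 (1.76 ± 0.43, adjusted p = 0.00550) were higher in heart by less. All 6 endothelial markers were higher in heart too, with a summed RPKM of 158 to 176 in heart and 28.2 to 37.2 in quadriceps, and their part in the Gata2 and Gata3 results was not tested. Gata1, Nkx2-3, Nkx2-6 and Isl1 had too few reads to be tested.

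Partners of MEF2 moved both ways. Hdac7 (1.70 ± 0.11, adjusted p = 1.48e-06), Hdac9 (1.58 ± 0.21, adjusted p = 0.000111) and Hdac5 (0.72 ± 0.11, adjusted p = 0.000361), class II deacetylases that bind MEF2, were higher in heart with both scalings. Hdac4 was higher in quadriceps with TMM (-1.05 ± 0.22, adjusted p = 0.00208) but not called with library totals (-0.28, adjusted p = 0.211). The deacetylases of this class thus did not share a direction with TMM. Mef2b, the remaining member of the family, had 3, 7 and 6 counts in the hearts and 0 in each quadriceps library (at least 2.61-fold higher, adjusted p = 0.0165).

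SRF itself did not pass the test with TMM (log2 fold change 0.22 ± 0.15, adjusted p = 0.225) and was higher in heart with library totals (0.99, adjusted p = 0.000171). Of the myocardin-related coactivators, Mkl1 was higher in quadriceps with both scalings (-1.19 ± 0.13 with TMM and -0.44 with library totals), while Mkl2 was called in opposite directions (-0.38 with TMM and 0.37 with library totals). Camta2, a coactivator of NKX2-5, was not called with TMM (0.20 ± 0.12, adjusted p = 0.172) and was higher in heart with library totals (0.96). Tead1 and Smyd1, both at -0.79 and called with TMM, were at -0.03 and not called with library totals. Twist1, a bHLH relative of the HAND genes, was higher in quadriceps with both (-1.65 ± 0.33 and -0.88). Of the E proteins that pair with HAND, Tcf3 (1.16) and Tcf4 (0.85) were higher in heart with TMM, and Tcf12 (-0.15, adjusted p = 0.227) was not called with TMM and was higher in heart with library totals (0.60). Of the inhibitors of these bHLH pairs, Id2 (1.497) and Id3 (0.57) were higher in heart, and Id1 did not pass (0.23, adjusted p = 0.663).

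**Figure D5:**
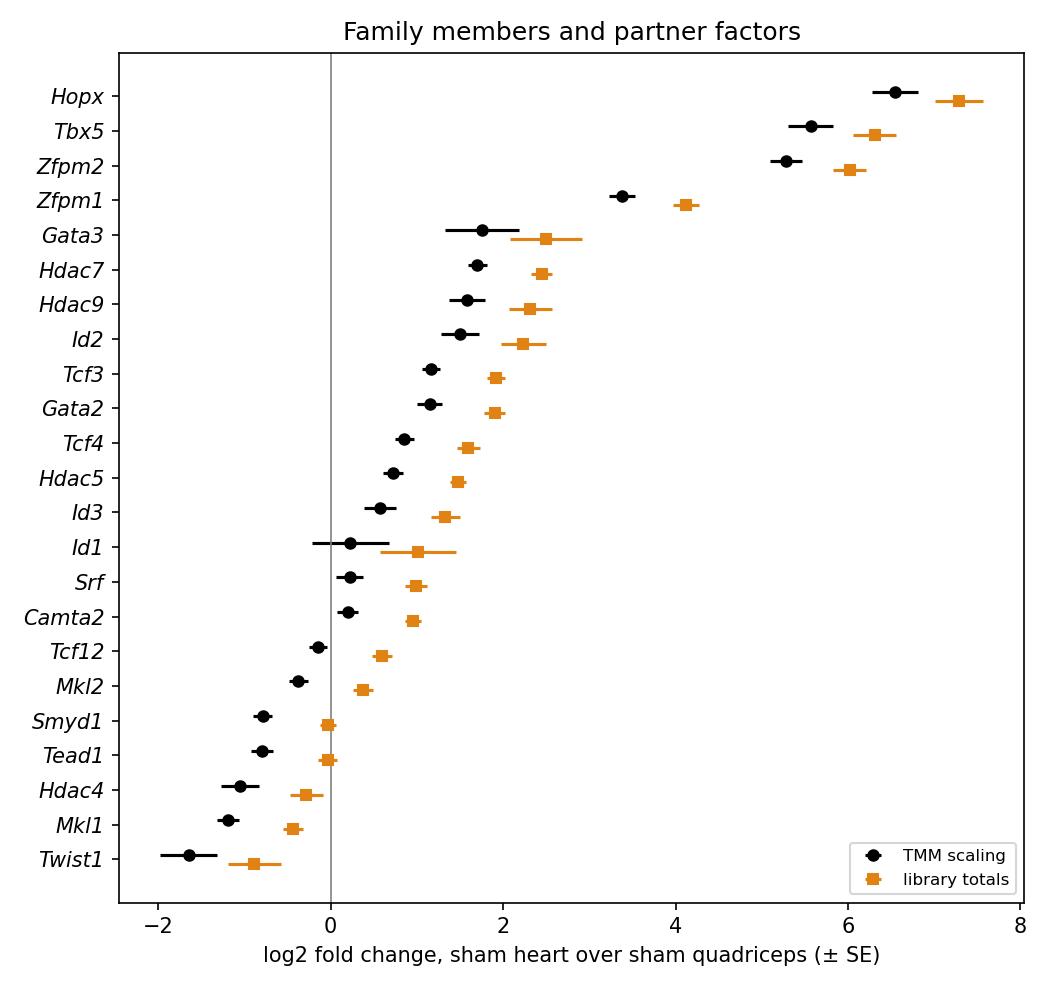
Log2 fold change of sham heart over sham quadriceps (± SE, n = 3 per tissue) for the 23 tested relatives and partners with reads in both tissues, with TMM scaling (black circles) and library totals (orange squares). Hopx, Tbx5, Zfpm2 and Zfpm1 lie farthest to the right with both, and Mkl2 and Tcf12 lie on opposite sides of 0 with the 2 scalings. The SE is derived from the F statistic.

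Genes known as targets of the members were listed by tissue. Of 23 genes known as cardiac targets, 21 were higher in heart and 1 higher in quadriceps (median log2 fold change 8.82). The backgrounds with TMM were 33.9% and 32.1%. All 8 cardiomyocyte markers used to check the tissue labels, among them Mybpc3, Ryr2 and Tnni3, are in this list. Its count is therefore a description of the tissues and no test of the factors. The highest log2 fold changes were those of Mybpc3 (13.80 ± 0.27), Ryr2 (13.51 ± 0.33) and Tnni3 (13.01 ± 0.26), genes of the sarcomere and of calcium release. They rest on few quadriceps reads, with 5, 4 and 1 counts for Mybpc3, 4, 0 and 2 for Ryr2 and 12, 8 and 3 for Tnni3. The derived SE can be too small for such genes, so their order is uncertain. Gja5, a gap junction gene of atria and conduction tissue, was higher by 1.23 ± 0.18. Adora1, an adenosine receptor, was higher in quadriceps (-1.69 ± 0.16, adjusted p = 1.63e-05). Xirp1 did not pass (0.45 ± 0.51, adjusted p = 0.452), with 1127 and 1118 counts in quadriceps 1 and 2 and 3571 in quadriceps 3.

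Of 13 genes known as MEF2 targets in skeletal muscle, 10 were higher in quadriceps and 2 higher in heart with TMM, where the backgrounds were 32.1% and 33.9%. The median log2 fold change was -2.30 with TMM and -1.54 with library totals. This count is a description as well. Myf6, a myogenic bHLH factor, had 0 counts in each heart library and 1861, 2157 and 1234 in quadriceps. Tnni1, the slow skeletal troponin I (-7.66 ± 0.20, 6, 9 and 4 counts in heart), and Myog (-6.84 ± 0.60, 0, 1 and 1 counts in heart) were higher in quadriceps as well. With so few heart reads the derived SE can be too small. Mb, the myoglobin gene (0.90 ± 0.18), and Ppargc1a (0.63 ± 0.12), which drives mitochondrial genes, were higher in heart, and Cox6a2 was not called with TMM (0.10 ± 0.12) but higher in heart with library totals (0.85, adjusted p = 0.000304). Of 8 SRF targets of smooth muscle, 4 were higher in heart and 2 in quadriceps with TMM (5 and 1 with library totals). The backgrounds were 33.9% and 32.1% with TMM and 62.0% and 13.6% with library totals. Smtn was highest (1.52 ± 0.11) and Lmod1 lowest (-1.78 ± 0.27).

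Markers of other cell types also differed between the tissues. With TMM, 4 of 7 fibroblast markers, 3 of 5 pericyte markers and 3 of 4 leukocyte markers were higher in heart and 0 higher in quadriceps, and with library totals 7, 5 and 4 were, beside a background of 33.9% with TMM and 62.0% with library totals. The summed RPKM of the fibroblast markers was 301.5 to 333 in heart and 124 to 197 in quadriceps, that of the pericyte markers 132 to 157 and 63.1 to 94.5, and that of the leukocyte markers 11.1 to 12.0 and 2.46 to 6.21. RPKM uses library totals, so these sums follow that scaling. The pericyte markers with the highest RPKM were Rgs5 (mean 88.2 in heart and 52.7 in quadriceps) and Abcc9 (32.6 and 19.9). Neither was called with TMM (log2 fold change 0.008, adjusted p = 0.968 and -0.05, adjusted p = 0.778, edgeR). Of the 6 smooth muscle markers 2 were higher in heart and 2 in quadriceps with TMM, and 3 and 1 with library totals. The background for quadriceps was 32.1% with TMM and 13.6% with library totals. The summed RPKM of the smooth muscle markers was 63.2 to 74.8 in heart and 23.1 to 28.7 in quadriceps. Of the 3 endocardial markers 2 were higher in heart and 1, Nfatc1, in quadriceps (-0.72 with TMM, not called at 0.03 with library totals). Tcf21, a bHLH factor of fibroblasts of the heart, had 215, 247 and 166 counts in the hearts and 0 in each quadriceps library. Wt1, a factor of the epicardium and the only mesothelial marker of 5 that could be tested, had 93, 103 and 116 counts in the hearts and 1, 0 and 1 in quadriceps. The part of these cells in the levels of Gata4, Gata6, Hand2 and Myocd, which such cells can also express, was not tested.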

How the data were processed

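Sham heart, sham quadriceps and TAC quadriceps were sequenced with 3 libraries each from 100 ng of RNA (ScriptSeq v2, single-end reads). After trimming in Trim Galore! and alignment to mm10 by STAR, the authors counted reads with Rsubread and deposited raw counts per RefSeq transcript. RPKM values, likewise deposited, are those counts over transcript length and library total. Versions, strand setting and treatment of reads shared by transcripts are not given in the sources used here. Columns of the authors' own statistics (fold changes, p-values and test scores) were not used, nor were 6 columns of single libraries, the RPKM columns of the TAC table. The sham quadriceps counts of both tables were identical in 587 of 587 transcripts.

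The counts went into edgeR 4.0.16 under R 4.3.3 (TMM, quasi-likelihood, Benjamini-Hochberg over 24280 transcripts), on the 6 sham libraries and transcripts that exceeded 5 counts in 2 or more libraries. On simulated counts for this comparison, 100% of 200 transcripts changed by 2 on the log2 scale were recovered among 23858, and 6.54% of calls were false. The changed transcripts had high mean counts and moved up and down in equal number. Rows were drawn independently, without a difference in composition between the tissues. The simulation thus does not cover genes with few reads, rows that share reads or the choice of scaling. P-values cover the spread between libraries, which the labels do not tie to single animals. Pooled ratios used TMM-scaled totals with exact binomial 95% intervals, which cover counting error and not the spread between libraries. A group with 0 reads was set at 3 counts over the group. Alternatives were library totals, DESeq2 1.42.0, limma 3.58.1 on log2(RPKM + 0.5, 1 or 0.1), other filters, 1 transcript per gene, a replicate block and leaving out each library. Named genes were all members, relatives and partners, up to the 3 highest and 3 lowest log2 fold changes of each other list, and the 3 genes nearest in profile to Gata4, Nkx2-5, Hand2 and Mef2a. Genes overlapping a member, Bmp10, Upk3b, Upk1b, Msln and Lrrn4 were named after their values were seen. The members and lists were chosen with earlier results of these data known. Overlaps came from GENCODE vM21, and exons were aligned with Biopython 1.88.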

Additional observations from a re-analysis of the deposited data

How the results depend on the processing

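Gata4, Gata6, Nkx2-5, Hand2, Myocd and Mef2c kept their direction and their call under every alternative that could test them. The size of the difference moved with limma on log2(RPKM + pseudocount), a scale that understates the change of genes with few reads. It was 4.13 to 7.37 for Gata4, 3.32 to 6.08 for Gata6 and 3.70 to 6.92 for Nkx2-5. For Hand2 it was 4.03 to 7.27 and for Myocd 3.04 to 6.004, lowest with a pseudocount of 1 for these 5 members. Mef2c, which had many reads in both tissues, was at -2.86 to -2.76, near the -2.88 with library totals, which RPKM also uses. Requiring 10 counts in every library removed the 6 members with few or no quadriceps reads, which left 0 members called higher in heart and 1 (Mef2c) higher in quadriceps, where Mef2d no longer passed (-0.31, adjusted p = 0.0557). Scaling decided the MEF2 results near 0. Mef2a was at 0.57 with library totals, and with limma on log2(RPKM + pseudocount) at 0.56 (0.5), 0.55 (1) and 0.57 (0.1). Mef2d was at 0.39, 0.38, 0.37 and 0.39 in the same settings. In all 4, 1 member was called higher in quadriceps in place of 2, and the genes called higher in heart numbered 9242, 9336, 9333 and 9366 in place of 5049, and those higher in quadriceps 2030, 2003, 1997 and 2015 in place of 4783. Gata5 was not called with the RPKM values (adjusted p = 0.0706, 0.0789 and 0.0523). The threshold of 2 on the log2 scale gave 1348 genes higher in heart, 1064 higher in quadriceps and 1 member higher in quadriceps, and 3796 transcripts in place of 16182. With 1 transcript per gene in the fit 9803 transcripts were called.

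Leaving out 1 library each time gave 4467 to 5045 genes higher in heart, 4254 to 4944 higher in quadriceps, 14396 to 16503 transcripts, 5 to 6 members higher in heart and 1 to 2 higher in quadriceps. The members that changed were Gata5 and Mef2d. In these fits a tissue with 2 libraries shares its spread with the other.

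The labels do not say whether the replicate numbers pair heart and quadriceps libraries of the same animal. Deviations of same-numbered heart and quadriceps libraries correlated at r = 0.0457, -0.0913 and 0.019 over transcripts. These values cannot decide the pairing, because different tissues of the same animal need not share deviations. With the replicate block, 4938 genes were higher in heart and 4592 in quadriceps, with 6 and 2 members, and the block changed no call of a member.

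A count of 0 in the quadriceps libraries limits Gata4, Nkx2-5 and Hand2 to 3 counts over the group, which covers counting error alone.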
